A study of Mus musculus with 20 samples.

Results

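The 8 genes described here belong to the renin-angiotensin system of the mouse kidney: Ren1, Agt, Ace, Agtr1a, Agtr1b, Mme, Enpep and Nr3c2. They were taken by gene symbol from the 54532 genes of the count table, as renin, its substrate, peptidases that form or destroy angiotensins, the angiotensin type 1 receptors and the mineralocorticoid receptor. Gene counts came from bulk poly(A) RNA sequencing of 10 kidney tumors and 10 normal kidney samples of the Cre-less AAV model. Mice on a C57BL/6J background carried the LSL-Cas9/+ and Pax8 Cre/+ alleles, so Cas9 was made only in cells with Pax8 promoter activity, which include renal tubule cells. An adeno-associated virus (AAV) with sgRNAs against Vhl, Pbrm1, Keap1 and Tsc1 was injected into the kidney of young adults of both sexes. Both groups came from one cohort of 10 such mice and share these alleles, and the sources used here do not state whether the normal samples were from injected kidneys. Whether a tumor and a kidney with the same number came from the same mouse is not stated, and the numbers serve here only as names.

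Renin, released by juxtaglomerular cells of the afferent arteriole, cleaves angiotensinogen to angiotensin I, and angiotensin-converting enzyme then forms angiotensin II. Angiotensin II constricts vessels through type 1 receptors and raises adrenal aldosterone, which acts on the mineralocorticoid receptor of the distal nephron to retain sodium. The brush border of the proximal tubule also holds peptidases that trim angiotensins further, among them aminopeptidase A and neprilysin.

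Of the 8 genes, Mme and Nr3c2 were lower in tumors than in normal kidneys and Agt was higher. Ren1, Ace, Enpep and Agtr1a did not pass the test, and Agtr1b had too few counts to be tested. Neprilysin (Mme) showed the most marked difference among the 8 genes, at about a 26.3-fold lower level in tumors, against 3.74-fold for Nr3c2 and 1.56-fold, upwards, for Agt. These 3 calls stand against a high background, as 47.5% of the 15354 genes tested differed between the groups, 23.6% higher and 23.8% lower in tumors (edgeR quasi-likelihood test, Benjamini-Hochberg adjusted p under 0.05). With upper quartile factors in place of TMM the split was 19.5% higher and 30.3% lower, and with library totals only it was 18.6% and 29.7%. The median log2 fold change was 0.19 over the 7 members tested and -0.02 over all genes tested.

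Promoter sequence was available for 7 of the 8 genes in the RefSeq promoter table (GRCm38.p6), in 10 windows, and Agtr1a had none. A TATA box sequence, TATAAA on either strand, lay within 250 bases before a start site in 5 of these 7 genes (Ren1, Agt, Ace, Agtr1b and Enpep). By window this was 5 of the 10, against 12.4% of all 32851 windows of that length. It began 29 bases before the start in Ren1, 30 in Agt, 31 in Agtr1b, 31 in Ace and 52 in Enpep, counted from its first base in reading direction. The last 60 bases before the start are shown for these 5 genes because they share the motif, and for Nr3c2 as a gene without it. Capitals mark the motif, which reads TTTATA where it lies on the other strand. A match is a description of the letters and not a mapped site.
Ren1: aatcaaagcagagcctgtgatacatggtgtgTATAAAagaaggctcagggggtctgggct
Agt: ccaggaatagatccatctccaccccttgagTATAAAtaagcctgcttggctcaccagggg
Ace: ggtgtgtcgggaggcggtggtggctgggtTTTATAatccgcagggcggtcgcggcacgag
Agtr1b: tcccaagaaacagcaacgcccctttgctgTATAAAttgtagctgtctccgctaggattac
Enpep: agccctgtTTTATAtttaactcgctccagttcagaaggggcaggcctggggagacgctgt
Nr3c2: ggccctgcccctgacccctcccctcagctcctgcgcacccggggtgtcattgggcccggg

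The Ren1 sequence lies at chr1:133350614-133350673 on the plus strand and that of Agt at chr8:124569707-124569766 on the minus strand. The Ace sequence, at chr11:105967888-105967947 on the plus strand, precedes the first of its 2 listed starts, and the window of the second start held no TATAAA. Agtr1b is at chr3:20367178-20367237 and Enpep at chr3:129332750-129332809, both on the minus strand, and Nr3c2 is at chr8:76902270-76902329 on the plus strand. Mme had 3 windows and none of them held TATAAA. The core of the hypoxia response element, ACGTG or GCGTG on either strand, was found in 2 of the 7 genes. It lay at 28 bases before 1 of the Mme starts and at 213 bases before the Nr3c2 start. By window this was 2 of the 10, against 38.6% of all windows. The NRF2 response element core, TGACNNNGC on either strand, was found in 0 of the 7 genes, against 10.2% of all windows. The RefSeq starts of Ren1, Ace, Mme and Nr3c2 lie inside the gene intervals printed below, which come from the count table. The gene counts do not tell which start was used.

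The libraries held between 14737516 and 26679704 counts in normal kidneys and between 18447394 and 24902973 in tumors. Levels are given as CPM (counts per 1e6 counts of the library) after TMM factors, which adjust each library's total for its composition and lay between 0.749 and 1.14, the lowest in normal kidney 9. Of the genes targeted by the sgRNAs, Vhl (25.8 to 18.4 CPM) and Tsc1 (50.9 to 33.4 CPM) were lower in tumors, Pbrm1 did not pass the test (65.2 to 53.7 CPM, adjusted p = 0.23) and Keap1 was higher (45.0 to 80.2 CPM). Small edits need not lower mRNA. Xist was at 432 CPM or more in libraries 2 to 6 of each group, and the other 5 libraries of each group carried Y-linked transcripts. Normal kidneys 5, 7 and 8 had between 1765 and 3302 CPM of the injury gene Lcn2, against 9.77 to 232 CPM in the other normal kidneys. Umod, Slc34a1 and Nphs1, which mark the thick ascending limb, the proximal tubule and podocytes, were present in every normal kidney (at least 3419, 140 and 3.71 CPM). In tumors, all 8 tested markers of the distal nephron and collecting duct were lower and their summed level, 1.90 to 36.8 CPM, lay far below that of the normal kidneys, 4149 to 10480 CPM. Summed proximal tubule markers overlapped (1831 to 12130 CPM in tumors, 2447 to 12120 CPM in normal kidneys). In such bulk samples, fewer cells of a type and less RNA per cell cannot be told apart.

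The substrate of the pathway, angiotensinogen, is encoded by Agt (ENSMUSG00000031980, mm10 chr8:124556534-124569706, minus strand) and in the kidney is made mainly by the proximal tubule. Its level in normal kidneys was 98.6 CPM at the lowest, 133 CPM at the median and 379 CPM at the highest, and in tumors 155, 245 and 359 CPM. The groups overlapped, though 8 of the 10 normal kidneys were at 156 CPM or below and 9 of the 10 tumors were above that. The highest level of all 20 libraries was in normal kidney 9, followed among normal kidneys by kidney 8 at 225 CPM. The mean was 163 ± 83.1 CPM in normal kidneys and 253 ± 67.8 CPM in tumors (SD, n = 10 each). The log2 fold change was 0.64 (SE 0.22, 95% interval 0.17 to 1.11, edgeR adjusted p = 0.0225), short of the limits used in the study (more than 1 on the log2 scale and a raw p under 0.001), which 8.85% of genes passed upwards. With upper quartile factors in place of TMM, which moved the median of all genes to -0.14, the value was 0.52 and the call was lost (adjusted p = 0.0543). Among the 10 libraries with Y-linked transcripts alone it was 0.46 (adjusted p = 0.426).

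Renin itself (Ren1, ENSMUSG00000070645, mm10 chr1:133350510-133360325, plus strand) varied more between libraries than nearly all other genes. C57BL/6 mice carry a single renin gene, so no second copy shares its reads. In normal kidneys the level ran from 5.64 CPM through a median of 22.1 to 93.4 CPM, and in tumors from 2.71 through 26.9 to 140 CPM. The tumors spanned the whole range of the normal kidneys, with tumor 7 the highest and tumor 4 the lowest of all 20 libraries. The SD of log2 CPM was 1.54 in normal kidneys, at percentile 98.1 of all genes tested, and 1.41 in tumors, at percentile 96.6. The log2 fold change of 0.19 had a 95% interval of -1.04 to 1.43 (SE 0.59, adjusted p = 0.81), wide enough to hold a 2-fold difference in either direction. Without tumor 7 the value turned to -0.37 (adjusted p = 0.588), and without normal kidneys 5, 7 and 8, which were high in Lcn2, it was 1.12 (adjusted p = 0.137). Kidneys 7 and 8 carried Y-linked transcripts and kidney 5 expressed Xist, so leaving them out also changed the balance of these classes.

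**Figure D1:**
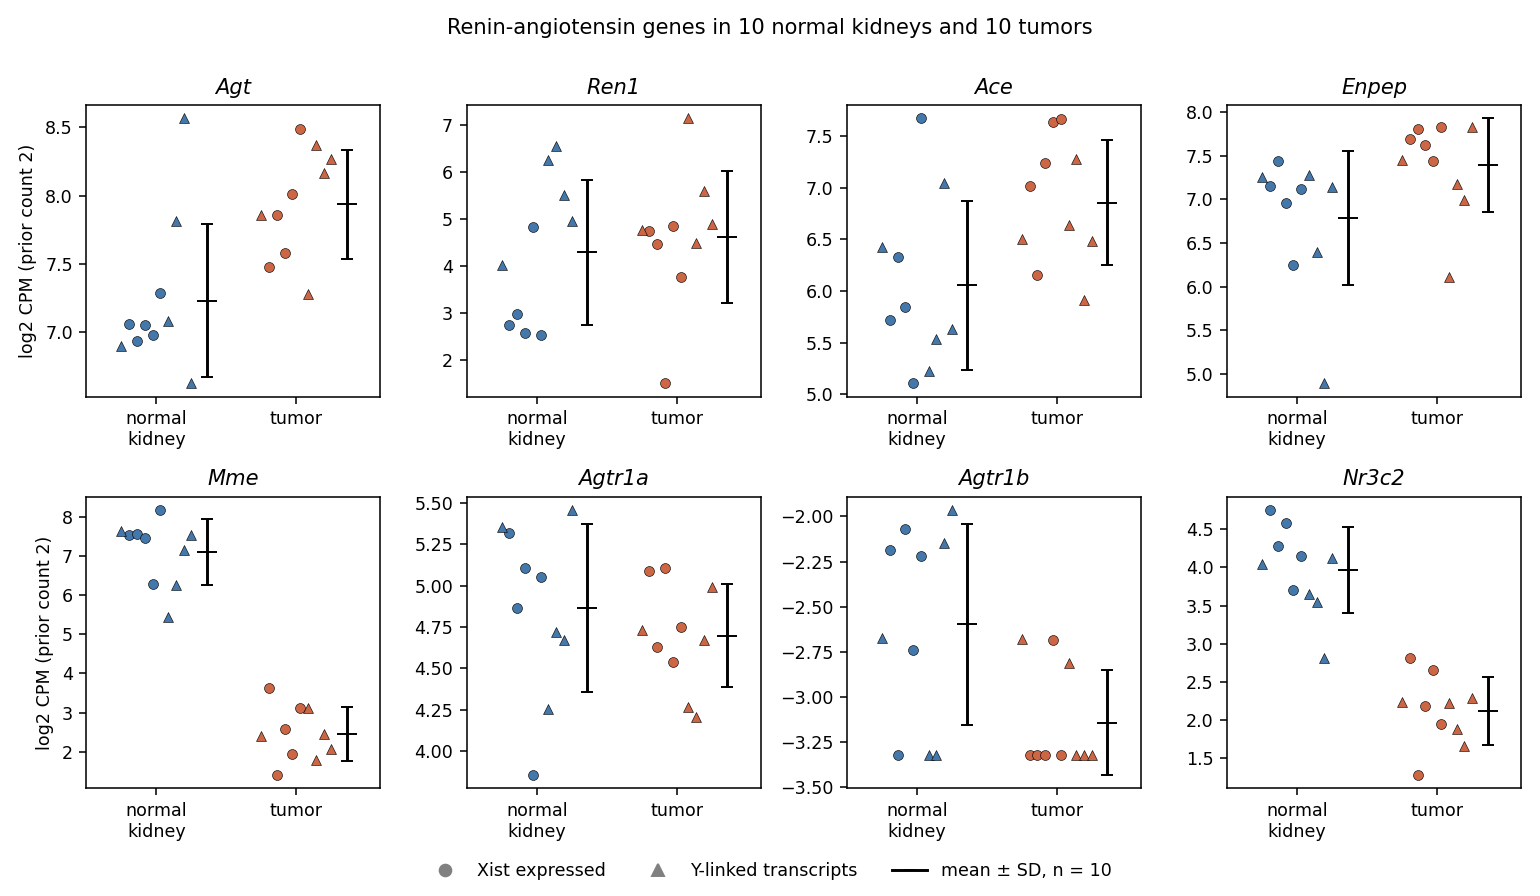
Level of each of the 8 genes (vertical axis, log2 CPM with a prior count of 2) in the 10 normal kidneys (blue) and 10 tumors (orange), with circles for libraries that expressed Xist, triangles for those with Y-linked transcripts, and bars for the mean ± SD (n = 10). For Mme and Nr3c2 every tumor lies below every normal kidney, the other genes overlap, and points at the bottom of the Agtr1b panel are libraries with 0 counts.

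Among the peptidases, angiotensin-converting enzyme (Ace, ENSMUSG00000020681, mm10 chr11:105967945-105989964, plus strand) forms angiotensin II and also degrades bradykinin. Normal kidneys had 34.3 CPM at the lowest, 54.9 at the median and 204 at the highest, and tumors 59.99, 115 and 202 CPM. The ranges overlapped almost wholly at the top because normal kidney 6, at 204 CPM, exceeded every tumor. The log2 fold change of 0.68 (SE 0.31) did not pass the test (adjusted p = 0.0801). It passed without normal kidney 6 (0.96, adjusted p = 0.00696) and without normal kidney 9 (0.78, adjusted p = 0.0453), and with all 20 libraries it passed with limma-voom (0.80, adjusted p = 0.034), also when that fit weighted libraries by quality (0.63, adjusted p = 0.0458).

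Aminopeptidase A (Enpep, ENSMUSG00000028024, mm10 chr3:129269175-129332720, minus strand) removes the first residue of angiotensin II to give angiotensin III. The lowest, median and highest normal kidneys were at 29.6, 140 and 173 CPM, and the tumors at 68.9, 186 and 228 CPM. In 7 of 10 tumors the level exceeded that of every normal kidney, and the lowest values were in tumor 7 and in normal kidney 9. The log2 fold change of 0.54 (SE 0.25) did not pass the test (adjusted p = 0.0822). Without tumor 7 it did, at 0.62 (adjusted p = 0.0279).

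Neprilysin (Mme, ENSMUSG00000027820, mm10 chr3:63241537-63386030, plus strand) converts angiotensin I to angiotensin 1-7 and degrades natriuretic peptides and bradykinin, and is made by proximal tubule cells and podocytes. It was at 43.6 CPM in the lowest normal kidney, 181 at the median and 290 in the highest, and in tumors at 2.53, 5.28 and 12.3 CPM. The groups did not overlap, and the highest tumor held less than the lowest normal kidney. A gap of this kind, with every tumor below every normal kidney, was seen in 4.74% of genes. The difference on the log2 scale was -4.72 (SE 0.36, 95% interval -5.47 to -3.97, adjusted p = 9.98e-10), the 233rd lowest of 15354 genes and past the study's limits, which 10.2% of genes passed downwards. The lowest normal kidneys were 7, 8 and 5, at 43.6, 76.2 and 78.0 CPM, the same 3 kidneys that were high in Lcn2.

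Levels of other cell markers are given beside the Mme value, and their part in it was not tested. Of 6 podocyte markers 4 were lower in tumors, among them Nphs1 (38.5 to 0.613 CPM) and Podxl (362 to 47.5 CPM). For this and the next counts, 23.8% of all genes tested were lower and 23.6% higher. The summed level of the podocyte markers was 104 to 831 CPM in normal kidneys and 145 to 280.3 CPM in tumors. Normal kidney 9 held the 104 CPM, and every other normal kidney had at least 564 CPM, above every tumor. Of 9 tested proximal tubule markers 3 were lower (Slc5a2, Slc22a8 and Aqp1), 1 was higher (Slc4a4) and 5 did not pass, including Lrp2 at 1868 CPM in normal kidneys and 2758 CPM in tumors. Brush border peptidases outside the 8 genes moved both ways: aminopeptidase N (Anpep) rose from 84.4 to 617 CPM and Dpp4 from 61.8 to 209 CPM, whereas Mep1a, at 911 and 550 CPM, did not pass (adjusted p = 0.083). Of the 9 brush border genes listed, 8 were tested, 3 were higher, 1 was lower (Cltrn) and 4 did not pass, with a median log2 fold change of 0.51. The third that rose was Meltf, an iron-binding membrane protein and no peptidase, from 9.36 to 76.9 CPM. Mep1b, at 40.8 CPM in normal kidneys and 0.0400 CPM in tumors, did not pass the filter for low counts, and in a fit without the filter it was lower (adjusted p = 1.61e-07). Without normal kidneys 5, 7 and 8, all 9 brush border genes were tested, and 3 were higher and 4 lower, Mep1b among the lower. Their median log2 fold change was then 0.12, in a fit that called 26.6% of all genes higher and 25.5% lower. With limma-voom and quality weights, 4 of 8 were higher and 3 lower, against 34.8% and 35.2% of all genes.

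The type 1 receptor that carries most actions of angiotensin II in the kidney is encoded by Agtr1a (ENSMUSG00000049115, mm10 chr13:30336441-30382867, plus strand). It was at 14.4, 31.0 and 43.8 CPM in the lowest, median and highest normal kidneys and at 18.4, 25.9 and 34.4 CPM in tumors. No tumor was outside the span of values found in normal kidneys. On the log2 scale the difference was -0.21 (SE 0.18, 95% interval -0.58 to 0.16, adjusted p = 0.345), an interval that holds no change as large as a doubling. When normal kidneys 5, 7 and 8 were left out for their Lcn2 level, a choice made after seeing the data, the value was -0.41 and passed the test (adjusted p = 0.0215).

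The second type 1 receptor gene, Agtr1b (ENSMUSG00000054988, mm10 chr3:20314473-20367177, minus strand), encodes a close copy of the same receptor and is known mainly from the adrenal gland and pituitary. No library held more than 3 counts of it. The 10 normal kidneys held 14 counts in all, with 0 counts in 3 of them, and the 10 tumors held 3 counts in all, with 0 counts in 7. Both groups were at or under the floor of 3 counts per library, so no fold is given. The mean log2 CPM was -2.60 ± 0.56 in normal kidneys and -3.14 ± 0.29 in tumors (SD, n = 10 each; two-sided permutation test, p = 0.0175), values that depend on the prior count of 2. In a fit of all genes without the filter it did not pass (edgeR adjusted p = 0.0653). How the counting treated reads shared by the 2 receptor genes is not given in the sources used here.

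The mineralocorticoid receptor (Nr3c2, ENSMUSG00000031618, mm10 chr8:76899442-77245012, plus strand) binds aldosterone and is most abundant in the distal nephron. Normal kidneys had 6.913 CPM at the lowest, 16.9 at the median and 26.8 at the highest, and tumors 2.32, 4.50 and 6.896 CPM. Every tumor lay below every normal kidney, but only narrowly, as tumor 2 and normal kidney 9 nearly touched. The mean fell from 16.6 ± 5.92 to 4.42 ± 1.37 CPM (SD, n = 10 each). This was a log2 fold change of -1.90 (SE 0.23, 95% interval -2.38 to -1.43, adjusted p = 6.11e-07), past the study's limits, and the 993rd lowest of all genes tested. Nr3c2 was thus lower by less than the distal markers given above, and the part that these markers have in its value was not tested. The glucocorticoid receptor gene Nr3c1, a close relative, was at 85.5 and 93.3 CPM (log2 fold change 0.13, adjusted p = 0.547), with a value of -0.04 when scaled by library totals only.

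Levels per length, in CPM per kilobase of the gene's exons, put Agt first in both groups, at 86.1 ± 43.9 in normal kidneys and 134 ± 35.9 in tumors (SD, n = 10 each). In normal kidneys Enpep (25.9 ± 9.48), Ren1 (19.0 ± 18.8), Ace (14.8 ± 10.0), Mme (13.6 ± 6.38) and Agtr1a (10.97 ± 3.44) followed, and neighbors in this part of the order differed by less than their SDs. Nr3c2 (2.56 ± 0.914) and Agtr1b (0.0355) came last. In tumors the order was Enpep (37.6 ± 10.9), Ace (23.6 ± 9.61), Ren1 (21.7 ± 23.2), Agtr1a (9.48 ± 2.00), Nr3c2 (0.683 ± 0.212), Mme (0.516 ± 0.262) and Agtr1b (0.00717). Mme, ahead of Agtr1a and Nr3c2 in normal kidneys, was below both in tumors, where its neighbor Nr3c2 was within the spread.

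Beyond these genes, 16 others that form, degrade, bind or receive angiotensins were listed, of which 10 passed the filter, 7 were higher in tumors, 1 was lower and 2 did not pass. Their median log2 fold change was 0.60, against -0.02 for all genes tested, of which 23.6% were higher and 23.8% lower. The largest rises in the list were those of Anpep, which is also counted among the brush border genes and turns angiotensin III into angiotensin IV (log2 fold change 2.87, adjusted p = 9.07e-08), and of the lysosomal carboxypeptidase Ctsa (2.27, 266 to 1281 CPM, adjusted p = 9.2e-11). For both genes every tumor exceeded every normal kidney, as was so for 5.87% of genes. Smaller rises were found for the endopeptidases Prep (0.81) and Nln (0.66), for the prorenin receptor Atp6ap2 (0.53) and for Agtrap (0.41), whose product binds the type 1 receptor. The receptor gene Mas1 rose by 1.34 at a low level (0.429 to 1.09 CPM, adjusted p = 0.0295). The call of Mas1 was lost with limma-voom (adjusted p = 0.0895), and that of Agtrap with upper quartile factors (adjusted p = 0.107). Prcp, a carboxypeptidase that acts on angiotensin II, fell by 0.46 on the log2 scale. Lnpep and Thop1 did not pass, and the sign of Thop1 (0.02) turned with 3 other scalings.

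Another 6 genes of that list were not tested for low counts. The type 2 receptor Agtr2 was at 0.0541 CPM in normal kidneys and 0.0111 CPM in tumors, and Mrgprd had 0 counts in every library. The mast cell proteases Cma1, Mcpt4 and Cpa3 and the neutrophil protease Ctsg had means of at most 1.31 CPM in either group. In an edgeR fit without the filter, Cma1 (log2 fold change 2.45, adjusted p = 0.023) and Cpa3 (2.46, adjusted p = 0.0264) were higher. Mcpt4, Ctsg and Agtr2 did not pass in it, and it called 12.8% of all genes higher. With library totals only, 5 of the 10 tested genes were higher and 1 lower, and without tumor 7 and normal kidney 9 the counts were 7 and 1. Among the libraries with Y-linked transcripts alone, 3 were higher and 1 lower, in a fit that called 10.1% of all genes higher and 8.59% lower.

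**Figure D2:**
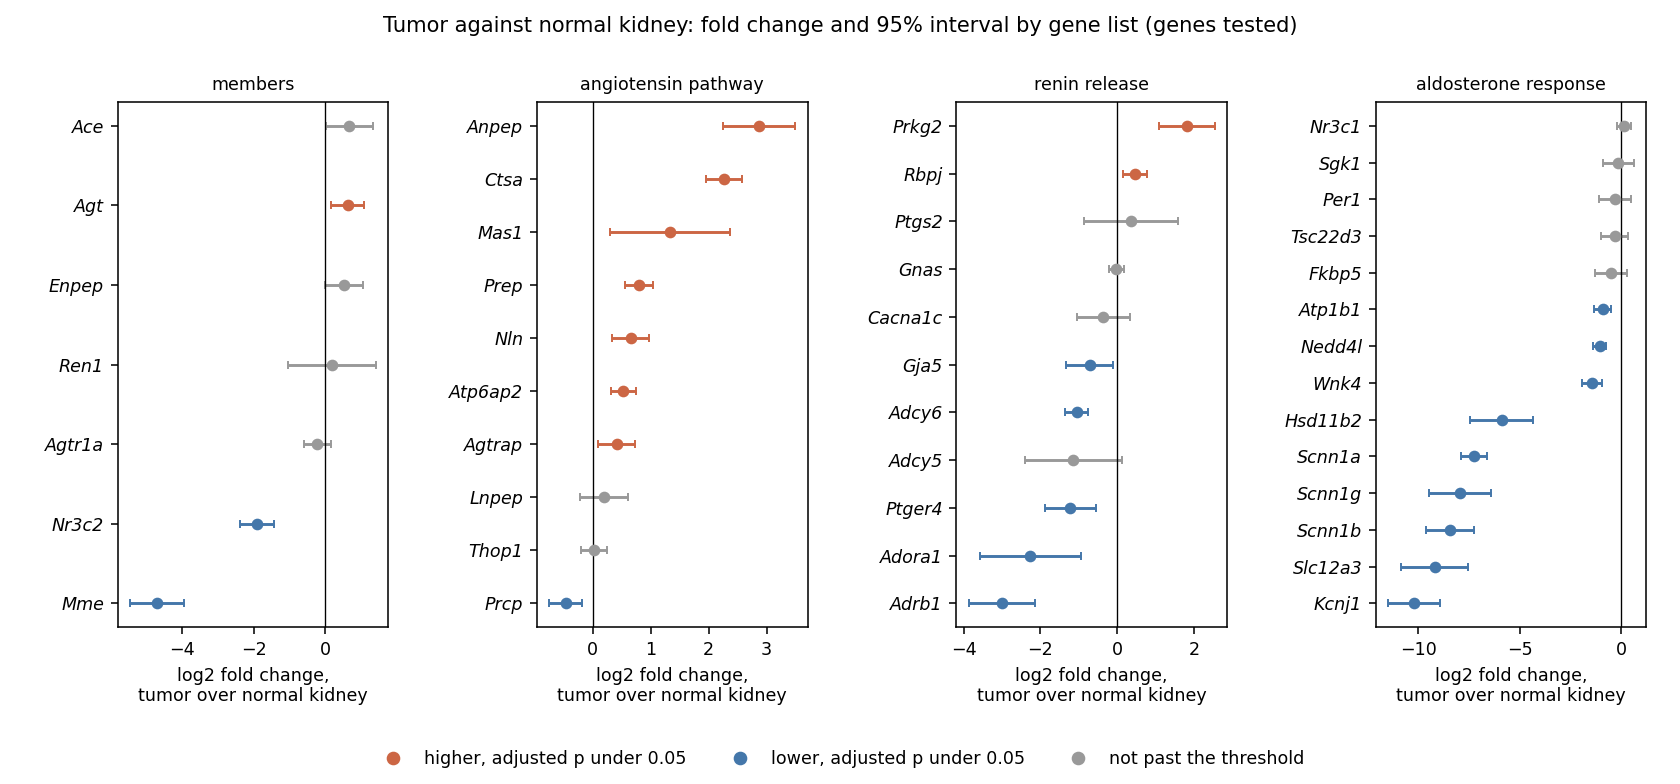
Log2 fold change of tumors over normal kidneys (horizontal axis, points, with 95% intervals as bars) for the tested genes of 4 lists, colored by the edgeR call at an adjusted p of 0.05. Mme and Nr3c2 lie left of 0 among the members, most angiotensin pathway genes lie right of it, and Kcnj1, Slc12a3 and the epithelial sodium channel genes lie farthest left in the aldosterone panel.

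Genes that govern renin release moved in both directions. Of 12 listed, 11 were tested, 5 were lower, 2 were higher and 4 did not pass, with a median log2 fold change of -0.72. The same fit called 23.8% of all genes lower and 23.6% higher. The beta-1 adrenergic receptor gene Adrb1, through which sympathetic nerves stimulate renin, went from 3.94 to 0.481 CPM (log2 fold change -3.00), and every tumor was below every normal kidney. The adenosine receptor gene Adora1, which mediates inhibition of renin by the macula densa, fell by 2.26, the prostaglandin receptor gene Ptger4 by 1.22, the adenylyl cyclase gene Adcy6 by 1.06 and the connexin gene Gja5 by 0.72 on the log2 scale. The kinase gene Prkg2 (1.81) and the Notch effector gene Rbpj (0.46) were higher. The call of Gja5 was lost without the low count filter (adjusted p = 0.074), and that of Rbpj with upper quartile factors (adjusted p = 0.0687) and library totals (adjusted p = 0.16). Ptgs2, Adcy5, Gnas and Cacna1c did not pass, though Adcy5 (-1.14, adjusted p = 0.126) was lower with DESeq2 (-2.25, adjusted p = 5.08e-09), with limma-voom (-2.16, adjusted p = 0.000736) and without tumor 7 and normal kidney 9 (-2.69, adjusted p = 2.06e-07). Nos1, the macula densa nitric oxide synthase gene, was not tested (0.888 and 0.161 CPM). Without the low count filter Nos1 was lower (log2 fold change -2.41, edgeR adjusted p = 0.000506). With the libraries with Y-linked transcripts alone, 2 genes were lower and 1 was higher, and without tumor 7 and normal kidney 9, 7 were lower and 2 higher.

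The genes that carry the renal response to aldosterone were lower or did not pass the test. Of 14 genes, all tested, 9 were lower, 0 were higher and 5 did not pass, with a median log2 fold change of -1.25, and 7 had every tumor below every normal kidney. Over all genes tested, 23.8% were lower and 4.74% had every tumor below every normal kidney. The 3 subunits of the epithelial sodium channel, Scnn1a, Scnn1b and Scnn1g, had log2 fold changes of -7.26, -8.42 and -7.94, with 1.33, 0.134 and 0.159 CPM in tumors. The thiazide-sensitive cotransporter Slc12a3 fell from 1170 to 2.00 CPM, the potassium channel Kcnj1 from 215 to 0.178 CPM, and Hsd11b2, which protects the mineralocorticoid receptor from glucocorticoids, from 108 to 1.81 CPM. Smaller falls were found for Wnk4 (1.43 on the log2 scale), the ubiquitin ligase gene Nedd4l (1.06) and the sodium pump gene Atp1b1 (0.92). Sgk1, the kinase induced early by aldosterone, did not pass (337 and 307 CPM, adjusted p = 0.787), nor did Tsc22d3, Fkbp5, Per1 and Nr3c1, which glucocorticoids also act through or induce. Slc12a3 and Hsd11b2 also stand in the list of distal nephron and collecting duct markers, and the part of those markers in the other values was not tested. Among the libraries with Y-linked transcripts alone, 7 genes were lower, in a fit that called 8.59% of all genes lower. The other alternatives gave 9 to 11 and called 15.2% to 35.2% of all genes lower.

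Genes of adrenal steroid synthesis were low, at a summed 3.91 to 6.59 CPM in normal kidneys and 2.35 to 11.35 CPM in tumors. Of 8 genes of adrenal steroid synthesis, 2 were tested (Star and Mc2r, neither past the test) and the aldosterone synthase gene Cyp11b2 was at 0.00730 CPM in normal kidneys and 0.00553 CPM in tumors.

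Ren1 was set beside 2 features that also varied within each group, the Xist class and Lcn2. These overlapped, as tumor 7 and normal kidneys 7 and 8, all high in Lcn2 for their group, carried Y-linked transcripts. The proximal tubule marker Slc34a1 was at 130 CPM in tumor 7 and at 140 and 310 CPM in normal kidneys 7 and 8, the lowest levels of each group. In the 5 normal kidneys with Xist, Ren1 was at 5.64 to 28.0 CPM, and in the 5 with Y-linked transcripts at 16.1 to 93.4 CPM. In tumors the ranges were 2.71 to 28.5 and 22.1 to 140 CPM. The means were 10.7 ± 9.69 and 52.2 ± 31.8 CPM in normal kidneys and 18.7 ± 10.7 and 53.4 ± 49.7 CPM in tumors (SD, n = 5 each), a split seen after the data were examined and given without a test. The 3 libraries highest in Ren1 were tumor 7 and normal kidneys 8 and 7 (140, 93.4 and 75.5 CPM). Lcn2 was at 165 CPM in tumor 7, the highest of the tumors, and at 1765 and 3302 CPM in these kidneys. Tumor 7 also stood apart in cell markers. Its summed fibroblast, pericyte and smooth muscle, and immune markers, at 3686, 1311 and 1390 CPM, were the highest of the tumors (medians 125, 566 and 360 CPM). Its summed proximal tubule markers, at 1831 CPM, were the lowest of the tumors (median 8254 CPM). Tumor 9, the next in Ren1 at 47.8 CPM, had 17.5 CPM of Lcn2, and normal kidney 5, with 2538 CPM of Lcn2, had 28.0 CPM of Ren1. Akr1b7, an aldo-keto reductase gene known from renin cells, was highest in normal kidney 7, tumor 7 and normal kidney 8 (7.23, 3.71 and 3.08 CPM) and at 0.345 to 2.08 CPM elsewhere. The summed level of the 7 listed juxtaglomerular markers, Akr1b7 among them, did not stand out in these libraries. It was 248 and 230 CPM in normal kidneys 7 and 8 (normal median 268 CPM) and 360 CPM in tumor 7 (tumor median 364 CPM). The part of these features and markers in the Ren1 values was not tested.

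Agtr1a was low in most libraries with much Lcn2 for their group. Normal kidneys 5 and 7, with 2538 and 3302 CPM of Lcn2, had 14.4 and 19.0 CPM of Agtr1a and kidney 8 had 26.2, and the 3 normal kidneys with at least 39.7 CPM of Agtr1a had 9.77 to 34.4 CPM of Lcn2. Among tumors, the 3 with the least Lcn2 (0.474 to 0.969 CPM) had the 3 highest Agtr1a levels, 31.8 to 34.4 CPM. The 2 tumors with the most Lcn2, tumors 7 and 8 (165 and 38.1 CPM), had the lowest Agtr1a levels, 19.2 and 18.4 CPM. Lcn2 was not alone in this. Over the 20 libraries, after each group's mean was subtracted, Spearman's rho of Agtr1a was -0.89 with Lcn2 and 0.87 with the proximal tubule marker Slc34a1. The points share libraries and scaling factors, and these relations are given as a description.

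**Figure D3:**
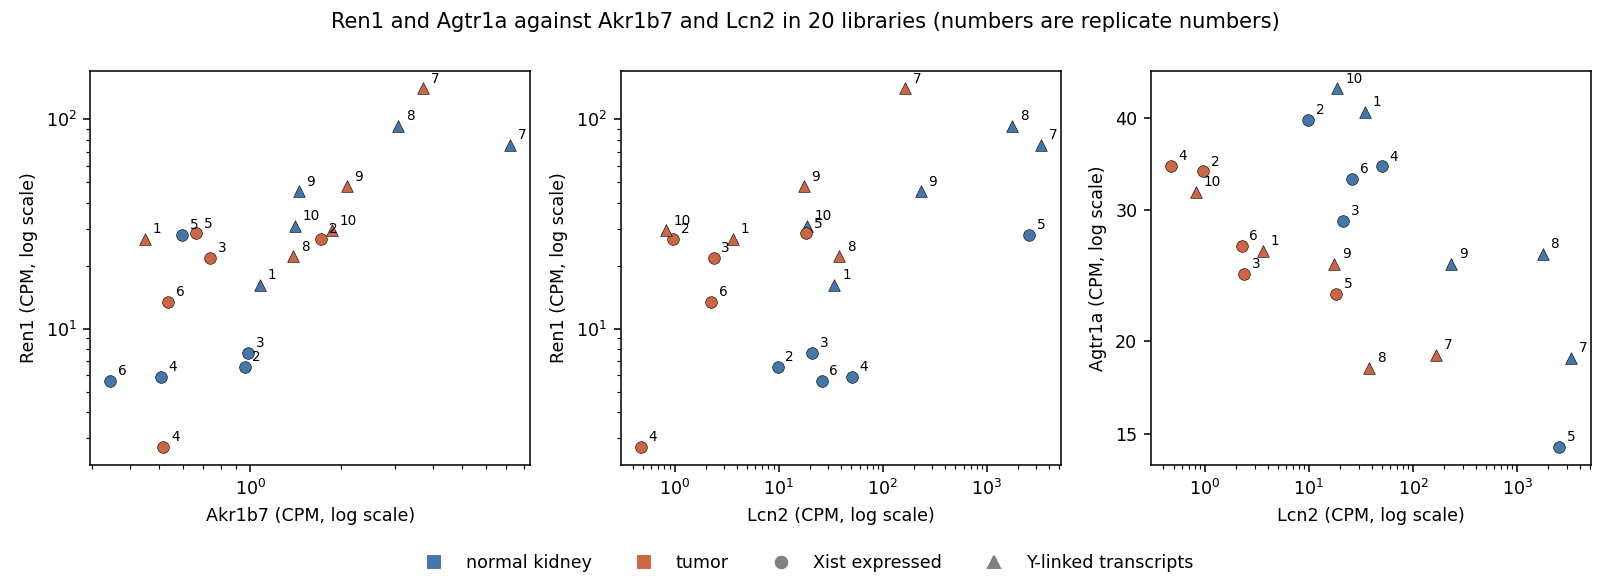
Ren1 against Akr1b7, Ren1 against Lcn2 and Agtr1a against Lcn2 (all axes CPM on log scales) in the 20 libraries, labeled with their replicate numbers and colored by group, with circles for Xist-expressing libraries and triangles for those with Y-linked transcripts. Tumor 7 and normal kidneys 7 and 8 stand at the top of both Ren1 panels, and within each group the libraries with much Lcn2 lie low in the Agtr1a panel.

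The tumor effect was also compared between the Xist and the Y-linked libraries by an interaction term, a test added after the data were examined. The difference passed for 0 of all 15354 genes, the 7 members tested among them (edgeR adjusted p = 0.707 to 0.936 for these), while 1774 genes had an unadjusted p under 0.05, with 5 libraries of each kind per group. For Ren1 the difference of the 2 effects was -0.76 (SE 0.90), and for Agt -0.41 (SE 0.43), so sizable differences are not shut out. Within the Xist libraries alone, Enpep passed the test at a log2 fold change of 0.63 (adjusted p = 0.0163).

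For each member tested, the 3 protein-coding genes whose log2 CPM followed it most closely across the 20 libraries, after each group's mean was subtracted, were picked from 13230 genes. Since they are the highest of so many, their correlations are a description without a test, and all points share libraries and scaling. Agtr1a had the close companions Acmsd, an enzyme gene of tryptophan breakdown (Pearson's r 0.92, Spearman's rho 0.89), Olfm3 (0.91 and 0.87) and Invs (0.90 and 0.86). Enpep was followed by Acot6 (r 0.94, rho 0.74) and Ank3 (0.93 and 0.71). Ren1 was followed by Tspan4 (r 0.84, rho 0.88), Bmyc (0.84 and 0.85) and F2r (0.83 and 0.84). Ace had the growth hormone receptor gene Ghr (r 0.86, rho 0.82), Mpv17l (0.83 and 0.84) and Grsf1 (0.82 and 0.87). Agt had Stap2 (r 0.84, rho 0.81), Sdf4 (0.84 and 0.67) and Wwox (0.83 and 0.85), and Mme had Slc16a5 (r 0.86, rho 0.81), Fads6 (0.83 and 0.72) and B3galnt1 (0.80 and 0.79). Nr3c2 had the loosest companions, Sun1 (r 0.80), Syde2 (0.78) and Rnf152 (0.78). No member was among the 3 closest genes of another.

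The calls were recomputed under other settings. Mme and Nr3c2 passed the test downwards in all of them, including each of the 20 fits that left out 1 library. The number of members called higher ran from 0 to 3, as Agt was lost or Ace and Enpep were added.

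**Figure D4:**
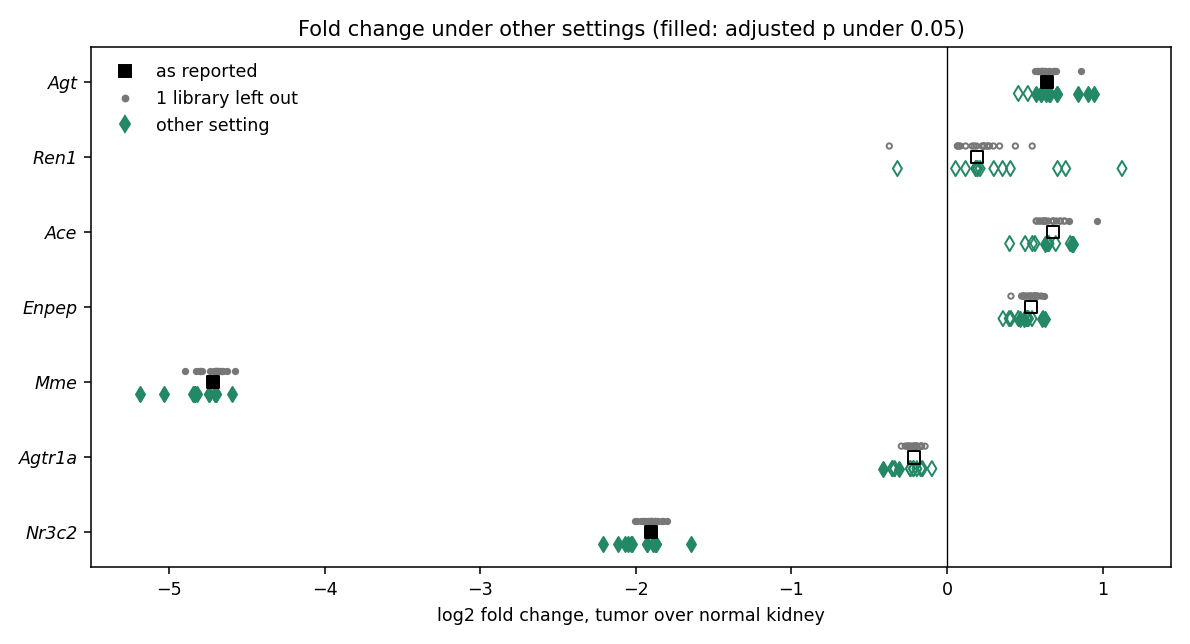
Log2 fold change of tumors over normal kidneys (horizontal axis) of the 7 tested members as reported (squares), with 1 library left out (dots) and under the other settings (diamonds), filled where the adjusted p was under 0.05. Mme stays between -5.18 and -4.58 and Nr3c2 between -2.21 and -1.64, all filled, whereas Agt, Ace, Enpep and Agtr1a have filled and open symbols and Ren1 has open symbols on both sides of 0.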

How the data were processed

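Tumors and normal kidneys (10 each) were flash frozen, pulverized in liquid nitrogen and extracted with Trizol. Novogene made poly(A) libraries, sequenced read pairs on an Illumina platform and supplied the raw gene counts that the authors deposited (build mm10 per the labels). The aligner, the counter and the use of strand are not given in the sources used here, so genes that overlap a member could share its reads. Those checked here (Gm11651, Gm10649, Gm42628, Gm48161 and Ace3) had at most 10 counts in any library. The study ran its own differential analysis on the NIDAP platform, which was not repeated.

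Members are all 8 genes of the rule. The other genes named are the called genes of hand-written lists, with those that were not tested, and the 3 genes most like each member. The members and lists were chosen with earlier results of these data known, and genes named outside these lists were chosen after their values were seen. Of the listed symbols, Tmem27 was found under its newer name Cltrn. Some genes that these rules cover, and the results that need them, are not reported here and were left out of the lists' counts.

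Counts were fitted in R 4.3.3 with edgeR 4.0.16 (TMM factors, filterByExpr with a count minimum of 10, quasi-likelihood test, group as the only term), which left 15354 of 54532 genes. P-values were adjusted by Benjamini-Hochberg over all of them. Log2 CPM used a prior count of 2, and permutation tests 100000 resamples (scipy 1.17.1, seed 20240). No pair of libraries within a group agreed within sampling noise (90 pairs, lowest chi-square per degree of freedom 14.3). The p-values measure the spread between these samples. Counting floors cover counting error only. Alternatives were other scalings, no filter, DESeq2 1.42.0, limma-voom (limma 3.58.1) with and without quality weights, a replicate block and leaving out libraries. Those by Xist, Y-linked transcripts and Lcn2 were chosen after seeing the data.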

Additional observations from a re-analysis of the deposited data

Results flagged for a closer look

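Of the extremes tested in 16 groups of 10 libraries, 2 stood apart by Dixon's criterion, which sets the gap to the nearest library against the group's range, and chance gives such a gap in about 1 in 20 groups. Both belong to Enpep. Normal kidney 9 was the lowest normal kidney at a log2 CPM of 4.89 (29.6 CPM), and tumor 7 the lowest tumor at 6.11 (68.9 CPM). Without tumor 7 the log2 fold change of Enpep was 0.62 and passed the test (adjusted p = 0.0279), and without both libraries it was 0.49 (adjusted p = 0.0111).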

How the results depend on the processing

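Under each alternative tried, Mme (log2 fold change -5.18 to -4.58) and Nr3c2 (-2.21 to -1.64) stayed lower and past the threshold. Agt was no longer past it with upper quartile factors (0.52) or in the Y-linked libraries alone (0.46). Members that did not pass as reported did so under some settings: with limma-voom Ace (0.80), with quality weights Ace (0.63), Enpep (0.47) and Agtr1a (-0.31), without tumor 7 and normal kidney 9 Ace (0.80) and Enpep (0.49), in the Xist libraries Enpep (0.63), and without the kidneys high in Lcn2 Agtr1a (-0.41). Ren1, never past the threshold, turned to -0.32 without both libraries and was 1.12 without the kidneys high in Lcn2. Members called higher numbered 0 with upper quartile factors and in the Y-linked libraries, 2 with limma-voom and in the Xist libraries, and 3 with quality weights and without both libraries, against 1 as reported. The share of all genes called higher was 23.6% as reported, 19.5% with upper quartile factors, 10.1% in the Y-linked libraries, 23.0% in the Xist libraries, 24.1% with limma-voom, 34.8% with quality weights and 26.5% without both libraries. With 1 library left out at a time, the range was -0.37 to 0.55 for Ren1, 0.57 to 0.86 for Agt, 0.57 to 0.96 for Ace, -0.29 to -0.14 for Agtr1a, 0.41 to 0.62 for Enpep and 1 to 2 for members called higher. The cause of these shifts was not tested. Upper quartile factors and library totals moved the median of all genes to -0.14, from -0.02.

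With the replicate number as a block, Ace (0.81, adjusted p = 0.0493) and Enpep (0.61, adjusted p = 0.0463) passed and members called higher numbered 3 (25.9% of all genes). The block changed no other member's call. The deviations of same-numbered libraries correlated at -0.14 to 0.38 (median 0.26), above 0.1 in 9 of 10 pairs. Of 10 kidneys, 5 correlated best with the tumor of their number, and Xist matched in 10 of 10. These values do not settle whether a number marks a mouse. The numbers were not taken as pairs because no source states it and replicate 9 correlated at -0.14. The fit as reported thus ignores any such pairing, and it treats as separate 20 libraries that came from a cohort of 10 mice. Depth limits Agtr1b, at or under 3 counts in every library.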

Other observations

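Other vasoactive systems of the kidney moved in both directions. Of 25 listed genes, 21 were tested, 12 were lower, 2 were higher and 7 did not pass. Their median log2 fold change was -1.17, against -0.02 for all genes tested, of which 23.8% were lower and 23.6% higher. Among the kallikrein-kinin genes, tissue kallikrein Klk1 went from 1323 to 0.639 CPM, the kininogen genes Kng2 from 483 to 18.6 CPM and Kng1 from 6.00 to 0.288 CPM, and the bradykinin receptor gene Bdkrb2 from 5.18 to 0.234 CPM, and for all 4 every tumor was below every normal kidney. The natriuretic peptide receptor genes Npr1 (log2 fold change -1.45) and Npr2 (-1.68), the protease gene Corin (-4.38), the vasopressin receptor gene Avpr1a (-2.62), Ptgs1 (-1.62), Pth1r (-1.32), Calcrl (-1.13) and Nos3 (-0.89) were lower too. Adrenomedullin (Adm), a vasodilator peptide, rose from 10.1 ± 3.49 to 146 ± 27.9 CPM (SD, n = 10 each; log2 fold change 3.85, adjusted p = 6.96e-13), and Dpp3, a peptidase that degrades angiotensins, from 59.3 to 108 CPM (0.86), and for both every tumor was above every normal kidney. Bdkrb1, Nppa, Nppb and Avpr2 were not tested, with means of at most 0.121 CPM. Among the libraries with Y-linked transcripts alone, in which 10.1% of all genes were called higher and 8.59% lower, 6 of these genes were lower and 2 higher, and without tumor 7 and normal kidney 9, 15 and 2.

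Of 7 markers of juxtaglomerular cells, 6 were tested, Gja5 was lower, Crip1 was higher (16.2 to 178 CPM) and 4 did not pass. Their summed level, which includes Crip1, was 150 to 334 CPM in normal kidneys and 288 to 575 CPM in tumors. The median log2 fold change of the tested markers was -0.38. The 5 adipocyte markers, of a tissue that also makes angiotensinogen, did not pass the test, and their summed level ranged from 3.96 to 362 CPM in normal kidneys and from 6.92 to 972 CPM in tumors. Of 5 liver markers, Apoa1 was higher (2.46 to 148 CPM) and 2 were lower, among them Alb (11.1 to 0.629 CPM).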
